A study of Mus musculus with 12 samples.

Results

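Leukaemia cells lacking MBD2 were compared with CD4+CD8+ (double-positive, DP) thymocytes lacking MBD2. The members were chosen by their sample titles alone: the 3 samples titled T-ALL MBD2-/- and the 3 titled DP MBD2-/-, which are 6 of the 12 arrays of the series. The other 6 arrays hold the same cell types of MBD2+/+ genotype, 3 of each, and enter here only where the knockout pair is set against the wild-type pair. The leukaemias are Notch1-driven T-cell acute lymphoblastic leukaemias (T-ALL). Their cells were sorted as GFP+ bone marrow cells from transplant recipients once GFP+ cells exceeded 50% of the white blood cells of peripheral blood. The thymocytes were sorted as CD4+CD8+ cells from the thymus of steady-state MBD2-/- mice. Both groups therefore carry the MBD2 deletion, and Mbd2 genotype does not differ between them. Organ, sort, transplantation and the leukaemia itself differ together between the groups and cannot be told apart. The labels give no age, sex, strain, driving construct or passage through recipients, and do not say whether the 3 samples of a group came from separate animals, so the p-values cover only the spread among the 3 arrays of each group, which may be technical.

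MBD2 is a protein that binds methylated CpG dinucleotides and recruits the NuRD chromatin remodelling and deacetylase complex. DP thymocytes are the stage at which the T-cell-receptor alpha locus is rearranged by the RAG recombinase. They display both co-receptors, CD4 and CD8, and most divide little and die unless their receptor is selected. Notch1 signalling drives the earlier, double-negative stages, is switched off at the DP stage, and when forced in blood progenitors gives T-ALL, largely through MYC-driven growth.

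Values are intensities of Affymetrix probe sets, in linear units, and 1 probe set stands for each gene. Differences are leukaemia minus thymocyte on the log2(intensity + 16) scale, which understates the change of dim genes, with their standard errors (SE) and limma's Benjamini-Hochberg adjusted p over all 15420 genes tested. A gene passed, or was called, at an adjusted p under 0.05. Among control probe sets that match no target, the brightest reached an intensity of 35.3, and levels at or below it cannot be told from background. Depth has no count on an array, and 3 arrays per group limit the precision. No level of 1 probe set is set against that of another.

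The transcript of the deleted gene was low on all 6 arrays. Mbd2 gave 41.4, 55.7 and 66.0 on the knockout leukaemias and 67.6, 84.3 and 64.4 on the knockout thymocytes, against means of 820.4 and 1136 in the wild-type groups. The 2 knockout groups overlapped, and Mbd2 did not pass between them (log2 −0.33, SE 0.16, adjusted p = 0.183). Xist, the RNA that silences an X chromosome, was low in both groups, with means of 36.5 and 39.7 (log2 −0.09, adjusted p = 0.637), and the Y-linked Eif2s3y was present in both, at 510.1, 574 and 472 and 189, 391 and 208 (log2 1.01, adjusted p = 0.0231, not passing in 6 of 20 alternative settings). Arrays of the knockout leukaemias correlated with each other at 0.980 to 0.986 across genes, those of the knockout thymocytes at 0.985 to 0.992, and arrays of different groups at 0.898 to 0.910.

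Technical measures overlapped between the groups, except on 1 array. The 3' to 5' signal ratio of the Gapdh control, a measure of RNA degradation, was between 0.964 and 2.98 on leukaemia arrays and between 1.12 to 3.33 on the thymocyte arrays. Poly-A control transcripts, added to RNA before labelling, gave signal only on knockout leukaemia 1 (dap 999, against 4.25 to 6.26 on the other 5). Without that array 2392 genes were higher and 1442 lower, within 1.5 times of the counts with all 6 arrays.

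Markers of myeloid, dendritic, B and stromal cells seldom passed. None of the 19 monocyte and macrophage markers tested passed in limma's fit, with 0 higher and 0 lower at an unadjusted p under 0.05. The summed intensity of the 20 on the array ran from 537 to 678 in leukaemias and from 599 to 692 in thymocytes, and the defining Cd14 and C1qa had means of 17.2 and 30.8 in leukaemias. Of 12 B cell markers, Cd22 was higher and Cd79b lower, with Pax5 at 29.8 and 25.4 and a summed intensity of 492 to 639.8 against 552 to 602. Neutrophil markers summed to 379 to 1077 in leukaemias and 304 to 615 in thymocytes. Among them S100a8 gave 278, 43.2 and 127 against 33.2, 20.1 and 152 and did not pass (adjusted p = 0.367), and Chil3 was the single neutrophil marker called of 13 (log2 0.95), losing the call in 6 settings. Of 10 dendritic and class II genes, H2-Ab1 rose (log2 0.74), losing the call in 3 settings, and the list summed to 584 to 861 against 554 to 664. Of 15 thymic epithelial and stromal markers tested, the adhesion gene Epcam (log2 1.39) and Col1a1 (0.82, call lost in 2 settings) were higher. The list summed to 769 to 1015 and 610.0 to 684, with the defining Foxn1 and Psmb11 below the no-target control in both groups. The part of residual other cells in the results was not tested.

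Between the 2 cell populations 4539 of the 15420 genes passed, which is 29.4% and the background for every count below of members called in the knockout pair. Of these, 2845 (18.5%) were higher and 1694 (11.0%) lower in the leukaemias. Differences of at least 2-fold were found for 1362 higher (8.83%) and 727 lower genes (4.71%), and of at least 16-fold for 58 (0.376%) and 27 (0.175%). The 3 leukaemia arrays lay outside the range of the 3 thymocyte arrays for 6485 genes (42.1%). Higher genes were 62.7% of the calls, but 52.1% with each array centred on its 75th percentile. That centring moved the median difference over all genes from 0.010 to −0.114, a shift of −0.124 that applies to every difference given here.

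The largest gain was Cpa3, which encodes the mast cell protease carboxypeptidase A3. Its intensity was 6912, 7885 and 8069.7 on the leukaemias and 28.1, 19.7 and 21.8 on the thymocytes (log2 7.61, SE 0.12, adjusted p = 4.22e-07). The thymocyte values are below the no-target control, so here and for other genes silent in 1 group the size of the difference depends on the added constant. The homeobox factor gene Hhex, active in blood progenitors, gave 2865, 3057 and 1959 against 21.2, 19.8 and 21.4 (log2 6.14, adjusted p = 2.32e-06). Lyl1, for a basic helix-loop-helix factor of blood progenitors, gave 2409, 2516 and 3021 against 32.2, 22.2 and 23.9 (log2 5.98). Trgv1, a T-cell-receptor gamma variable segment, was higher by log2 6.69. Receptor and ligand genes in the same group of 12 were the platelet-derived growth factor receptor gene Pdgfrb (log2 6.60), the progenitor surface glycoprotein gene Cd93 (6.34) and the growth factor gene Tgfb2 (6.14). The others were the granzyme gene Gzmb (5.90), Mycn (5.85), Trnp1 (5.96), Lmcd1 (5.85) and Scel (5.61).

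At the other end stood Rag1, the recombinase gene that defines cells rearranging their receptor. It gave 21.7, 23.9 and 9.78 on the leukaemias, at background, and 9207, 12588 and 11545 on the thymocytes (log2 −8.35, SE 0.20, adjusted p = 1.18e-06). Cd8b1, for the CD8 beta chain, gave 101, 42.4 and 43.9 against 5262, 8797 and 10746 (log2 −6.74, adjusted p = 1.81e-05). Ly6d (log2 −6.23), the thymus-homing chemokine receptor gene Ccr9 (−6.03), the lysosomal protease gene Ctsl (−5.40) and Cd8a (−4.97) were also among the 12 largest losses. So were Glcci1 (−5.37), the class I MHC gene H2-Q2 (−4.97), Dgkeos (−4.91), Lsp1 (−4.75), Ssbp2 (−4.61) and Tiparp (−4.56).

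**Figure D1:**
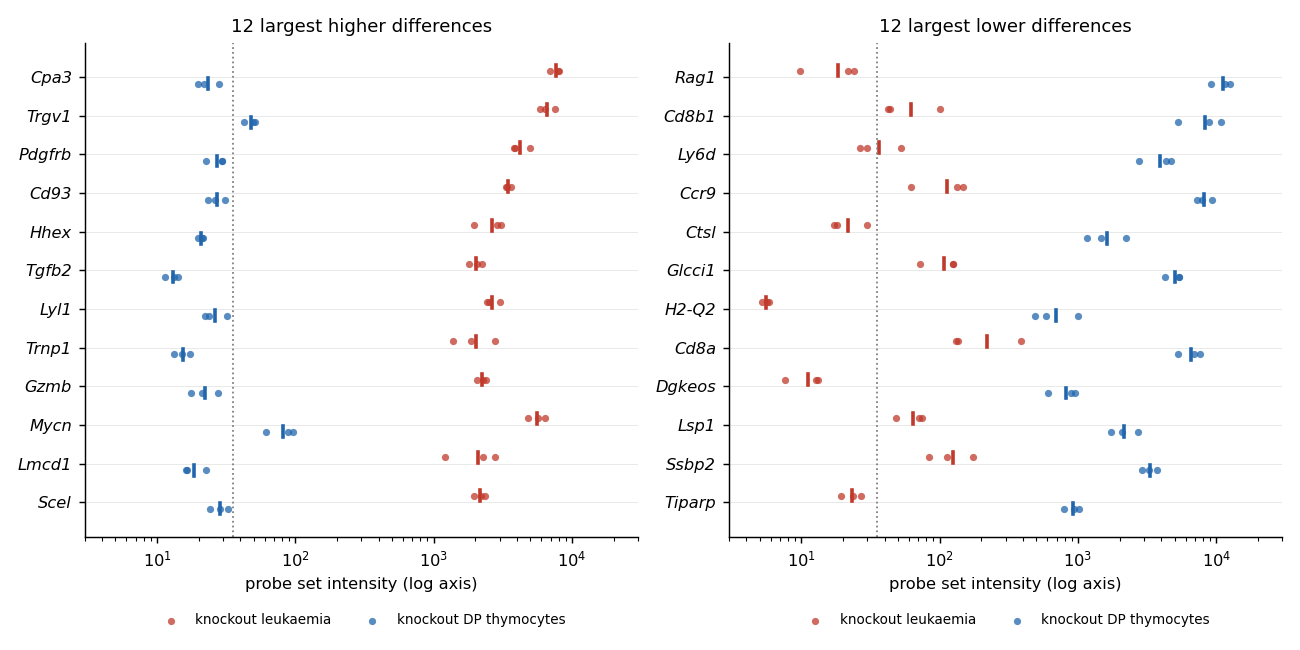
Probe set intensity on a log axis for the 12 genes with the largest higher and the 12 with the largest lower differences, each point 1 array, short bars the group mean of 3 arrays, red for knockout leukaemia and blue for knockout DP thymocytes. The dotted line marks the highest no-target control (35.3), and Cpa3 and Rag1 show the widest gaps, with 1 group at background in each.

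The promoters of the genes that gained most were often poor in CpG dinucleotides, as were those of some gene lists described below. Promoter windows of 300 bases (250 before and 50 after the start site, RefSeq, build GRCm38.p6) were found for 12262 of the genes tested. The CpG ratio, observed over expected from the C and G content, was under 0.4 in 21.5% of them, taking the highest window of a gene. Among genes at least 16-fold higher in leukaemias it was under 0.4 in 22 of 39 with a window (56.4%), and among those at least 16-fold lower in 6 of 23 (26.1%). Over all called genes the shares were 13.9% for higher and 13.3% for lower genes, below that of all genes tested. Among the lists described below, the ratio was under 0.4 in 10 of 20 DP identity genes (50%), most of which were lower. It was so in 21 of 36 interferon-stimulated (58.3%) and 14 of 17 cytotoxic genes (82.4%). The numbers were 0 of 35 for ribosome biogenesis and 2 of 25 for progenitor genes. For genes higher than in the wild-type pair the share was 25.7%. These shares are a description with no test, and DNA methylation was not measured. The 250 bases before the start site are shown for 3 genes at the top of the gains and for Rag1, because their CpG content differs widely, with each CG in capitals and the rest in lower case.
Cpa3, GRCm38.p6 chr3:20242182-20242431, minus strand: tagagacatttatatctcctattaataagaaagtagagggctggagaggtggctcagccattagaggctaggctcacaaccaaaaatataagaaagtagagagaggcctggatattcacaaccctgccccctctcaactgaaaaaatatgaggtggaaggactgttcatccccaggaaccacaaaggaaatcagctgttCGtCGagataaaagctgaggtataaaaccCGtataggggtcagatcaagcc
Gzmb, GRCm38.p6 chr14:56262335-56262584, minus strand: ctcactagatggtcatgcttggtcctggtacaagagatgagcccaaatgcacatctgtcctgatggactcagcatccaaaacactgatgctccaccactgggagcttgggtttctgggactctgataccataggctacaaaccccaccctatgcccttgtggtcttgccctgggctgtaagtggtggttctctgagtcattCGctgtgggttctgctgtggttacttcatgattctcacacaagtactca
Hhex, GRCm38.p6 chr19:37434591-37434840, plus strand: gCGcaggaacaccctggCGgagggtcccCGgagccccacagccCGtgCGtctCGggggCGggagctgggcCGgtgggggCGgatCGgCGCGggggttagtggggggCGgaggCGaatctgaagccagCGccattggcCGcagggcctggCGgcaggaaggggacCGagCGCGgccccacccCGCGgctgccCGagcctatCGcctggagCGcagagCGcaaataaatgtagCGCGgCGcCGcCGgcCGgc
Rag1, GRCm38.p6 chr2:101649533-101649782, minus strand: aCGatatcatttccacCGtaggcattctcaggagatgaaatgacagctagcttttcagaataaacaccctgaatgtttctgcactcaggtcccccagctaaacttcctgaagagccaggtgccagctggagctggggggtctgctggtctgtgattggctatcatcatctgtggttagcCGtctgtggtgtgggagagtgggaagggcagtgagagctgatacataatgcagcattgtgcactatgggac
Cpa3 holds 3 CpGs in these 250 bases, Gzmb 1, Rag1 3 and Hhex 32.

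Genes of DP thymocyte identity were lower in the leukaemias almost throughout. Of 27 tested, 21 were lower, 2 higher and 4 did not pass, with a median difference of −2.49 against 0.01 over all genes tested. The thymocytes were sorted on CD4 and CD8, so the height of Cd4, Cd8a and Cd8b1 in that group follows from the sort. Cd4 was at 92.2, 91.8 and 94.2 against 1376, 1844 and 1285 (log2 −3.79, SE 0.15, adjusted p = 5.9e-06) and Cd8a at 388, 135 and 132 against 5233, 7607 and 6909.9 (log2 −4.97, SE 0.39, adjusted p = 0.000119). Leukaemia 1 had the highest Cd8a and Cd8b1 of its group, yet stayed far below every thymocyte array. In bulk RNA a smaller share of CD8-positive cells and less RNA per cell cannot be told apart.

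Rag2, the partner of Rag1, gave 9.57, 12.4 and 11.6 against 223, 399 and 579 (log2 −3.84, adjusted p = 0.000124). Dntt, for the terminal transferase that adds bases at receptor joints, was lower by less: 2987, 4291 and 4733 against 10671, 12011 and 11227 (log2 −1.52, SE 0.18, adjusted p = 0.000771), so that the leukaemias lacked detectable recombinase transcripts but not those of Dntt. Ptcra, for the pre-T-cell-receptor alpha chain, was at 40.7, 25.7 and 28.5 against 429, 445 and 519 (log2 −3.34). The transcriptional repressor gene Bcl6 (log2 −4.08), the lipid-presenting Cd1d1 (−1.31), the selection gene Themis (−2.06), the chromatin organizer gene Satb1 (−2.49), the signalling receptor gene Slamf1 (−3.23) and the guidance receptor gene Plxnd1 (−3.53) all fell. The 2 members that rose were the immediate early factor gene Egr1 (log2 1.44) and the activation marker gene Cd69 (1.14), the latter losing its call in 1 alternative setting.

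Transcripts of the T-cell-receptor complex, such as Cd3d and Cd247, were present in both groups, while its proteins were not measured. The CD3 genes, which encode its signalling chains, gave 7282 ± 1383 and 8124 ± 1365 (mean ± SD, n = 3, as below) for Cd3d, which did not pass (log2 −0.16, adjusted p = 0.593). Cd247, the zeta chain gene, fell from 3039.8 ± 591 in thymocytes to 1033 ± 253 in leukaemias (log2 −1.56, adjusted p = 0.00176). Cd3e (log2 −0.55) and Cd3g (−1.02) were lower too, but lost the call in 6 and 5 alternative settings. Of the 15 receptor and recombination genes tested, 9 were lower and 1 higher (2 without knockout leukaemia 1). The genes of the end-joining proteins that seal recombination breaks went opposite ways, with Xrcc5 at log2 1.98 and its partner Xrcc6 at −1.56. Of the variable segments of the gamma chain, 2 were high in the leukaemias and near background in the thymocytes: Trgv1 gave 6382, 7569 and 5879 against 51.4, 49.0 and 42.8, and Trgv4 gave 1713, 1887 and 1703 against 30.8, 23.2 and 38.2 (log2 5.27, adjusted p = 1.84e-06). Related segments can share probes, so the segment is uncertain.

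Downstream of the receptor, signalling genes split. Of 33 tested, 7 were higher (4 without knockout thymocyte 2) and 15 lower. Inhibitors of signalling were on both sides: the diacylglycerol kinase gene Dgka fell by 2.15 on the log2 scale and the ubiquitin ligase gene Cbl by 1.23, whereas its relative Cblb rose from 267 ± 56.8 to 1089.9 ± 449 (log2 1.89, adjusted p = 0.00497). The adhesion receptor genes Cd2 (log2 −2.45) and Cd6 (−1.13) fell. The kinase gene Zap70 (0.94) and the calcium-responsive factor gene Nfatc2 (1.28) rose, Nfatc2 without the call in 1 alternative setting, the mean of its probe sets.

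Transcription factors of the T lineage changed in both directions, 7 higher and 7 lower of 28 tested. Sox13, a factor of gamma-delta T cells, gave 696, 959 and 611 in leukaemias and 49.5, 47.5 and 39.5 in thymocytes (log2 3.63, SE 0.18, adjusted p = 1.53e-05). Runx3 (log2 2.64), Tox2 (1.96, call lost in 1 setting), Ikzf2 (1.17) and Lef1 (1.01) were also higher. Ets2 (log2 −3.03), Id3 (−2.30), Foxp1 (−1.55) and the commitment factor gene Bcl11b, at 2668, 3628 and 3033 against 7746, 8736 and 8637 (log2 −1.43, adjusted p = 0.0003), were lower. Bcl11b thus remained well above background in the leukaemias.

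Notch targets were mostly higher. Of 16 tested, 11 were higher and 2 lower, a share called of 81.2% against 29.4% of all genes, with a median of 1.39. Dtx1, a Notch-induced ubiquitin ligase gene, gave 4545, 5379 and 3897 in leukaemias and 162, 129 and 154 in thymocytes (log2 4.81, SE 0.15, adjusted p = 3.16e-06). The repressor gene Hes1 gave 2294, 1523 and 765 against 45.9, 33.7 and 43.3 (log2 4.63, adjusted p = 0.000117). The feedback inhibitor gene Nrarp gave 2162, 2171 and 1066 against 72.3, 96.4 and 78.1 (log2 4.14). Both related repressor genes Heyl (log2 3.97) and Hey1 (3.64) rose from levels near background. Every leukaemia array exceeded every thymocyte array for these 5 genes, as it did for 24.4% of all genes tested. Ptcra and the cyclin gene Ccnd3 were the 2 members that fell. Il2ra, a target in early thymocytes, had means below the no-target control in both groups (32.5 ± 4.79 and 28.7 ± 7.18). The letters CGTGGGAA, bound by the Notch partner RBPJ (both strands), stood in 0 of 12 promoter windows of these targets and in 1.23% of all genes tested.

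The receptor Notch1 was itself higher, at 6369, 6435 and 4188 against 1329.9, 1588 and 1752 (log2 1.83, SE 0.20, adjusted p = 0.000495). Whether its probe set also detects the leukaemia-driving form is not shown by the data. Notch3, both receptor and target, rose from 223 ± 18.5 to 577 ± 206 (log2 1.26). Of the other receptors Notch2 did not pass and Notch4 was too dim to be tested. Among 24 receptors, ligands and transducers tested, 6 were higher and 2 lower (1 without knockout leukaemia 2 or 3 or knockout thymocyte 3), or 33.3%, close to the background. The glycosyltransferase gene Mfng, which tunes ligand choice, rose by log2 1.10, while its relative Rfng was lower (−1.10). The ligand genes Dll1 and Dll4 had means below the no-target control in both groups. Fbxw7, whose product degrades Notch and MYC, was lower (log2 −0.67) but lost the call in 8 alternative settings.

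Markers of double-negative thymocytes, the stage before DP, counted 8 higher and 2 lower of 12 tested (83.3% called), with a median of 1.23. Their summed intensity ran from 8938 to 13671 in leukaemias and from 1828 to 2087 in thymocytes. The list shares Il2ra, Il7r, Dtx1, Hes1, Nrarp, Notch3 and Ptcra with the Notch targets and Kit and Erg with the progenitor genes described below, and its counts are not independent of theirs. The interleukin-7 receptor gene Il7r gave 194, 227 and 77.4 against 60.6, 50.3 and 61.3 (log2 1.20) and the factor gene Gata3 959, 1532 and 1310.2 against 828, 615 and 822 (0.72), and these calls were lost in 10 and 9 alternative settings. Cd44, an adhesion receptor gene of the earliest thymocytes, was lower, at 21.0 ± 7.90 against 65.2 ± 5.96 (mean ± SD, n = 3, log2 −1.16, adjusted p = 0.00237).

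**Figure D2:**
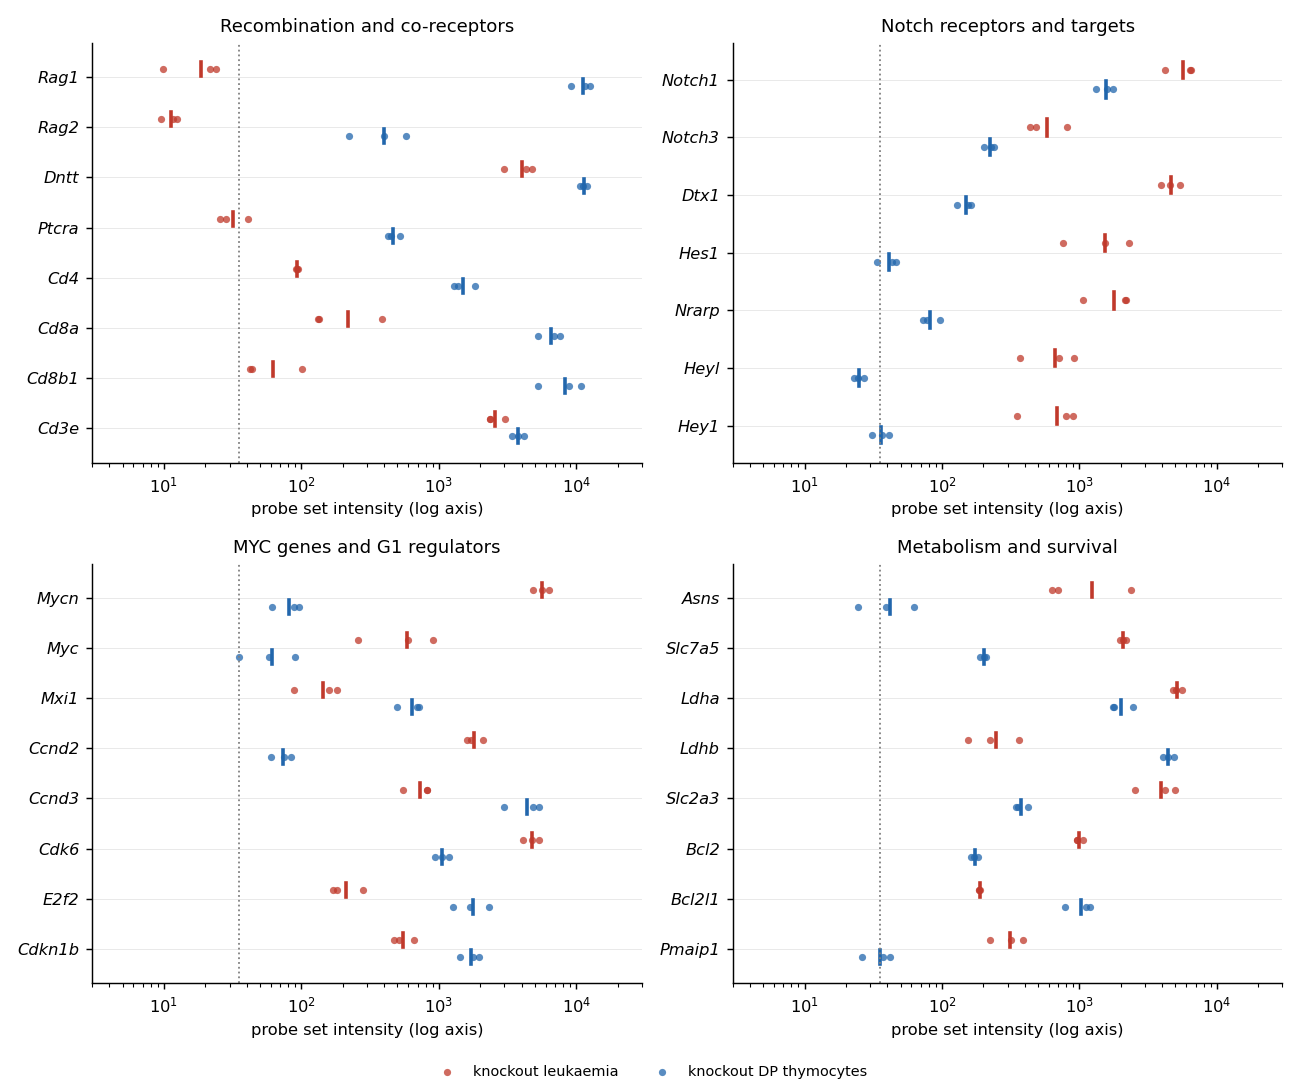
Probe set intensity on a log axis for recombination and co-receptor genes, Notch genes, MYC and G1 genes, and metabolic and survival genes, each point 1 array, short bars the means of 3 arrays, red for knockout leukaemia and blue for knockout DP thymocytes, with a dotted line at the brightest no-target control. Rag1 and Cd8b1 are high only in thymocytes, Hes1 and Mycn only in leukaemias, and Ccnd2 with Ccnd3, Ldha with Ldhb and Bcl2 with Bcl2l1 move in opposite directions.

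Mycn and Myc were both higher. Mycn gave 5651, 6356 and 4822 in the leukaemias and 88.9, 95.4 and 61.4 in the thymocytes (log2 5.85, SE 0.17, adjusted p = 2.79e-06), and Myc gave 599, 911 and 259 against 35.4, 57.9 and 90.6 (log2 2.87, SE 0.46, adjusted p = 0.00304). Genes of the MAX partners that oppose MYC fell: Mxi1 from 634 ± 118 to 143 ± 48.7 (log2 −2.06, adjusted p = 0.00104), Mxd4 by 1.17 and Mxd3 by 1.06 on the log2 scale. Max itself and Mnt did not pass. Of the 12 genes of the network, 2 were higher and 5 lower (3 without knockout leukaemia 2 or 3 or knockout thymocyte 2 or 3), although Mxd1 and Mlx, among the lower ones, each lost the call in 10 alternative settings.

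Genes of ribosome biogenesis, a process that MYC proteins promote, were nearly all higher. Of 41 tested, 38 were higher, 0 lower and 3 did not pass (92.7% called; 0 lower at an unadjusted p under 0.05), with a median of 1.34. Utp20, for a small-subunit processing factor, gave 997, 1016 and 1173 against 155, 141 and 136 (log2 2.75, SE 0.11, adjusted p = 6.82e-06). Rrp12 (log2 2.40), Rrp1b (2.11), Pes1 (1.27) and Gnl3 (1.46) rose as well. The letters CACGTG, the E-box that MYC and MAX bind (both strands, sharing the letters CGTG with the RBPJ motif above), stood in the promoter windows of 7 of 35 members (20%) and in 10.7% of all genes tested.

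Amino acid and one-carbon genes showed the same direction, 18 higher and 3 lower of 29 tested, with a median of 1.00. Asns, for asparagine synthetase, gave 694, 629 and 2376 against 62.2, 39.3 and 24.4 (log2 4.20, adjusted p = 0.000867). The large neutral amino acid transporter genes Slc7a5 (log2 3.27) and Slc3a2 (1.56), which encode the 2 subunits of 1 carrier, rose together. In serine synthesis Psat1 (log2 2.74) and Phgdh (1.60) rose, and in mitochondrial one-carbon transfer Shmt2 (2.40) and Mthfd1l (2.32). The 3 that fell were the glutamine synthetase gene Glul (log2 −3.18), the cystine transporter gene Slc7a11 (−2.68) and Slc38a2 (−1.14).

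Glycolysis genes were mostly higher, 14 of 22 with 2 lower (1 without knockout thymocyte 2). The glucose transporter gene Slc2a3 gave 4228, 4956 and 2533 in leukaemias against 344, 357 and 423 in thymocytes (log2 3.28, SE 0.24, adjusted p = 9.59e-05). Pgam1 (log2 2.07), Aldoa (2.11), Pfkl (1.71) and Pkm (1.56) of the pathway followed. The lactate dehydrogenase subunits moved in opposite directions. Ldha, the form that favours lactate production, rose from 1995 ± 403 to 5127 ± 371 (log2 1.37), and Ldhb fell from 4861, 4392 and 4049 on the thymocyte arrays to 225, 154 and 363 on the leukaemia arrays (log2 −4.15, SE 0.27, adjusted p = 5.24e-05). Slc2a1, the other glucose transporter gene of lymphocytes, did not pass (log2 −0.41, adjusted p = 0.303).

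Oxidative phosphorylation genes were seldom called. Of 50 tested, 4 were higher (1 or 2 without knockout leukaemia 1 or any 1 of the thymocyte arrays) and 1 lower (2 without knockout leukaemia 1 and 0 without any 1 of the thymocyte arrays), or 10.0%, below the background of 29.4%. Cholesterol synthesis genes lay near the background, with 4 higher and 2 lower of 20 (1 or 2 higher without knockout leukaemia 1 or 2 or knockout thymocyte 2). The sterol demethylase gene Cyp51 rose (log2 1.23, adjusted p = 0.00305) and the sterol sensor gene Insig1 fell (log2 −1.37, adjusted p = 0.00523).

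The G1 machinery changed composition. Of 19 cyclins, kinases and inhibitors tested, 7 were higher and 7 lower (73.7% called). Ccnd2, for cyclin D2, gave 1603, 1707 and 2101 in leukaemias against 83.6, 60.5 and 74.7 in thymocytes (log2 4.35, SE 0.15, adjusted p = 4.19e-06). Ccnd3, for cyclin D3, went the other way, 813, 814 and 551 against 2983, 4843 and 5339 (log2 −2.55, SE 0.25, adjusted p = 0.00035). Cdk6, for the kinase of both cyclins, rose from 1055 ± 124 to 4740.1 ± 653 (log2 2.15). Among the inhibitors Cdkn1b, for p27, fell by 1.62, Cdkn2d by 1.55 and Cdkn2c by 1.07 on the log2 scale, while Cdkn1a, for p21, rose by 1.52 and Cdkn2a by 1.43. The E2F factors also split, with E2f2 at 279, 171 and 183 against 1263, 1689 and 2321 (log2 −2.95) and E2f3 at log2 1.42. The retinoblastoma gene Rb1 was lower (log2 −2.02, adjusted p = 8.18e-05).

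Replication genes were often higher, and mitosis genes were seldom called. Of 52 S-phase genes, 20 were higher (13 without knockout thymocyte 1 and 11 without knockout thymocyte 2) and 1 lower, a median of 0.43, and of 47 mitosis genes 0 were higher (2 at an unadjusted p under 0.05) and 3 lower (1 without knockout leukaemia 3 and 0 without knockout thymocyte 2 or 3), a median of −0.0038 and a share called of 6.38%. The helicase subunit gene Mcm3 was at 2104 ± 150.0 in leukaemias against 1017 ± 75.6 in thymocytes (log2 1.04, adjusted p = 0.00045). The uracil glycosylase gene Ung (1.40), the polymerase epsilon genes Pole (0.99) and Pole2 (1.08) and the factor gene E2f1 (0.76) rose. Rrm2, for a ribonucleotide reductase subunit, was the 1 member lower (log2 −0.89), and lost the call in 7 alternative settings. The proliferation marker genes Mki67 (4158 ± 723 and 5295 ± 763) and Top2a (4113 ± 883 and 5306 ± 825) did not pass (adjusted p = 0.172 and 0.182). Birc5, Cdca3 and Ube2c were the 3 mitosis genes lower, by log2 −0.72, −0.69 and −1.03, and lost the call in 6, 5 and 7 alternative settings.

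The E2F motif letters TTTGGCGC or TTTCGCGC (both strands) stood in the promoter windows of 12 of 43 S-phase genes (27.9%), against 1.61% of all genes tested. The 250 bases before the start are shown for the higher S-phase genes with a match there that have the smallest p, with every match on either strand in capitals, overlapping ones joined. A match is a description, not a site.
Mcm5, GRCm38.p6 chr8:75109259-75109508, plus strand: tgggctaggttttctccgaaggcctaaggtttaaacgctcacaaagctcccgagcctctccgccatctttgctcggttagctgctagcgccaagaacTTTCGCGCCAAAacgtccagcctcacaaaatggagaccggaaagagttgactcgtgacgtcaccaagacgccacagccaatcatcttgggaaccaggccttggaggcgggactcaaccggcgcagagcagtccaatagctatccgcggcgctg
Mcm6, GRCm38.p6 chr1:128359706-128359955, minus strand: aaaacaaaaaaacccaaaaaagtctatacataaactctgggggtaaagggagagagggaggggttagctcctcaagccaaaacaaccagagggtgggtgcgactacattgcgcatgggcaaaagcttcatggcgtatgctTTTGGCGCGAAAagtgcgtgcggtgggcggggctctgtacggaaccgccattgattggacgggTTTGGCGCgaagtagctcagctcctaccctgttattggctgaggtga
Mcm5, with 2 overlapping matches, rose by log2 0.45 and Mcm6, with 3 matches of which 2 overlap, by 0.79, and the calls were lost in 4 and 8 alternative settings.

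The anti-apoptotic genes Bcl2 and Bcl2l1 moved in opposite directions. Bcl2 gave 966, 958 and 1064 in leukaemias against 184, 172 and 162 in thymocytes (log2 2.42, SE 0.10, adjusted p = 8.36e-06). Bcl2l1, for BCL-XL, on which DP thymocytes depend, gave 187, 189 and 187 against 779.8, 1115 and 1187 (log2 −2.34, SE 0.17, adjusted p = 7.45e-05). Among the pro-apoptotic BH3-only genes Pmaip1, for NOXA, rose from 35.2 ± 8.02 to 312 ± 82.3 (log2 2.66) and Bcl2l11, for BIM, from 1529 ± 326 to 2852 ± 484 (log2 0.90, call lost in 1 setting). Of 16 family genes tested, 5 were higher and 2 lower (1 without any 1 of the thymocyte arrays).

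Of 28 p53 pathway genes, 12 were higher and 4 lower. Zmat3 (log2 2.05), Aen (1.37) and Phlda3 (1.26) rose with Pmaip1 and Cdkn1a. The death receptor gene Fas fell from 239.7, 366 and 428 in thymocytes to 19.3, 21.1 and 37.4 in leukaemias, at background (log2 −3.09, adjusted p = 0.000124). The antiproliferative Btg2 (log2 −2.47) and Trp53inp1 (−1.12) fell too. Mdm2 did not pass.

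Genes of early blood progenitors were higher where they passed, 14 of 31 tested, with 0 lower (2 at an unadjusted p under 0.05). With arrays centred on the 75th percentile 14 were higher and 3 lower, and with quantile normalization 14 and 1. Of the 34 on the array, 23 had means above the no-target control in leukaemias and 18 in thymocytes. Genes at background in thymocytes could hardly be called lower. Transcription factors led them. Nfe2 gave 1317, 1303 and 1266 in leukaemias against 12.4, 11.4 and 10.2 in thymocytes (log2 5.59, SE 0.09, adjusted p = 4.22e-07), and Lmo2 gave 818, 1159 and 1175 against 25.8, 31.1 and 33.7 (log2 4.51, adjusted p = 4.66e-06). Erg (log2 3.97) and Etv6 (2.25) rose. The stem cell factor receptor gene Kit gave 724, 1230.2 and 449.8 against 29.5, 29.6 and 32.8 (log2 4.02, adjusted p = 0.000133), and the TIE2 ligand gene Angpt1 rose by log2 3.74. The homeobox genes Hoxa5, Hoxa7, Hoxa9 and Meis1 did not pass, and neither did Tal1 and Mef2c. Spi1, a myeloid and early progenitor factor gene, did not pass either, at 53.5 and 45.9.

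Some of these genes also mark mast cells, megakaryocytes or red cell precursors, whose other markers were mostly dim. Of 15 mast cell and basophil markers on the array, 10 were tested and 6 were higher: Cpa3, Kit, Hdc (log2 2.49), Srgn (1.26), Gata2 (1.14) and Mcpt8 (1.37, call lost in 4 settings), while Mitf was lower (−1.05). The defining mast cell genes Tpsab1 (14.4), Cma1 (9.52), Mcpt4 (18.7), Fcer1a (6.23) and Ms4a2 (10.1) had means below the no-target control in leukaemias. The mast list summed to 16725 to 17108 in leukaemias and 3362 to 4019 in thymocytes, most of it Cpa3 and Srgn. Of 9 megakaryocyte markers tested Nfe2, Itgb3 (log2 3.40), F2r (3.84) and Itga2b (1.55) were higher, while Pf4 (23.4) and Ppbp (6.88) stayed below that control. This list summed to 6324 to 6650.2 and 591 to 734. Among 17 erythroid markers Hemgn (log2 2.84), Gata1 (1.74), Klf1 (1.72), Epor (0.52, call lost in 1 setting) and the transferrin receptor gene Tfrc (1.50) were higher and Car2 lower (−1.19), with the globin gene Hba-a1 at 13.8 and 18.8 and sums of 3722 to 5165 and 1576 to 1664.

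Cytotoxic effector genes counted 12 higher and 0 lower of 23 tested (1 lower at an unadjusted p under 0.05, and 1 called lower without knockout thymocyte 3). Of the 26 on the array, 17 had means above the no-target control in leukaemias and 7 in thymocytes. Most therefore had no level in thymocytes from which to fall. Gzmb gave 2067, 2275 and 2392 against 27.6, 21.0 and 17.5 (log2 5.90, adjusted p = 8.54e-07). The granule membrane gene Nkg7 gave 1733, 1204 and 1318 against 25.2, 29.6 and 31.9 (log2 4.98), and the protease inhibitor genes Cst7 (4.87) and Serpinb6b (3.57) and the interleukin-18 receptor gene Il18r1 (5.05) rose. The pore-forming Prf1 (68.4 ± 22.3 and 84.5 ± 18.0) and the effector factors Tbx21 and Eomes did not pass. Of 15 natural killer and innate lymphoid markers on the array, 12 were tested and 8 were higher, while Klra1, Klra7 and Klra8 were too dim to be tested. The list summed to 4787 to 8505 against 989.8 to 1573, most of it Gzma. Klrd1 (log2 3.00), the innate-like factor gene Zbtb16 (2.55) and Rora (1.62) rose, while the defining Ncr1 (17.7 in leukaemias) was below the no-target control. Whether such cells are among those sorted was not tested. Gzma, already above background in thymocytes, rose from 961 ± 337 to 5287 ± 1929.8 (log2 2.44).

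Interferon-stimulated genes counted 23 higher and 2 lower (1 without knockout leukaemia 2 or 3 or knockout thymocyte 2) of 46 tested, a median of 0.72. The membrane antiviral gene Ifitm2 gave 1696, 1119 and 1164 in leukaemias against 25.6, 15.0 and 19.9 in thymocytes (log2 5.20, adjusted p = 4.85e-06). The oligoadenylate synthetase genes Oas1a (log2 1.62), Oas3 (1.47) and Oasl2 (1.93) and the feedback gene Usp18 (1.26) rose, the last losing its call in 1 alternative setting. Ifit2 (log2 −1.08) and Stat2 (−0.63, call lost in 9 settings) fell, and Mx1 and Rsad2 did not pass. The core of the interferon-stimulated response element, read as GAAA, any 2 bases and GAAA (both strands), stood in the windows of 18 of 36 members (50.0%), against 3.61% of all genes tested. The 250 bases before the start are shown for the higher members with a match there that have the smallest p, with every match in capitals, overlapping ones joined.
Ifitm2, GRCm38.p6 chr7:140955962-140956211, minus strand: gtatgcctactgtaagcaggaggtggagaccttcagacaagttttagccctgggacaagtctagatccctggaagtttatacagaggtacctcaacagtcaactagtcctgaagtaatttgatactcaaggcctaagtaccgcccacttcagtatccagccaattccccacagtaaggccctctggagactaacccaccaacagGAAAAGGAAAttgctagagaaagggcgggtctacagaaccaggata
Oas1a, GRCm38.p6 chr5:120907526-120907775, minus strand: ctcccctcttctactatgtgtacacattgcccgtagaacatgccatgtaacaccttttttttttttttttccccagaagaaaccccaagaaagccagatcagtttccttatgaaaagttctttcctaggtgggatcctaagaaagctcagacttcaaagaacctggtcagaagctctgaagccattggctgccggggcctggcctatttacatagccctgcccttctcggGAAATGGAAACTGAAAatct
The classical class I MHC genes H2-K1, at 10747, 8982 and 5941 against 999, 1100.4 and 1225 (log2 2.89, adjusted p = 0.000101), and H2-D1 (log2 1.87) were higher, and H2-Q2 gave 5.23, 5.69 and 5.82 against 586, 1003 and 491. Class I genes are near-identical in stretches and differ between strains, so their probe sets are uncertain.

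Cytokine receptor and feedback genes divided into 15 higher and 8 lower of 40. Il2rb (log2 2.07) and Il10ra (2.29) rose with Kit and Il18r1, as did the signal transducer gene Stat5a (1.32). The interferon gamma receptor gene Ifngr1 (log2 −1.79), the interleukin-4 receptor gene Il4ra (−1.52) and the suppressor gene Socs3 (−1.92) fell. Homing and adhesion genes counted 10 higher and 5 lower of 35. Integrin genes Itgb3, Itgb7 (log2 1.89) and Itga4 (1.36) and the lymph node homing receptor gene Ccr7 (1.47) rose. Ccr9 gave 146, 62.4 and 133 against 7849, 9257 and 7213, and Itga6 (log2 −1.21), Icam2 (−1.20) and Itgb2 (−0.98) fell. Cxcr4, the receptor for the marrow chemokine, did not pass (1754 ± 96.8 and 1593 ± 140.1, log2 0.14, adjusted p = 0.425).

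Mature T cell genes counted 10 higher and 3 lower of 24. Gimap4, of a family of GTPases of lymphocyte survival, gave 4933, 4537 and 5337 against 139.9, 99.3 and 147 (log2 5.11, SE 0.16, adjusted p = 2.92e-06). Its relatives Gimap3 (log2 1.65) and Gimap5 (1.36) rose, and the other 5 members of the 8 tested did not pass. Igfbp4 rose by log2 3.51, and the membrane gene Ms4a6b fell (−2.05).

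Among immediate early and activation genes, 8 were higher and 7 lower of 29, the latter 3 or 4 without any 1 array other than knockout leukaemia 3. Dusp2 (log2 2.20), Ier2 (2.34) and Nr4a2 (2.11) rose and Btg1 (−1.71) and Jund (−1.27) fell, while Egr2 did not pass. The NF-kB list had 4 higher (2 without knockout leukaemia 1 or 3 or knockout thymocyte 2 or 3) and 5 lower (3 without knockout thymocyte 2) of 25, with Ltb (log2 −1.71) and Tnfaip3 (−1.34, call lost in 1 setting) lower. Its counts were 2 higher and 8 lower with arrays centred on the 75th percentile, and 4 and 8 with quantile normalization. PI3K, mTOR and FOXO genes had 6 higher (3 without knockout thymocyte 3) and 8 lower of 30. Of these the regulatory subunit gene Pik3r5 fell from 566 ± 82.1 to 59.0 ± 6.03 (log2 −2.95) and Foxo4 by 1.73 on the log2 scale, and the phosphatase gene Phlpp1 rose (log2 1.49).

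In the machinery of DNA methylation, the de novo methyltransferase gene Dnmt3b stood out, at 1477, 1506 and 1885 in leukaemias against 125, 73.6 and 85.7 in thymocytes (log2 3.90, SE 0.19, adjusted p = 1.53e-05). The remodeller gene Hells (log2 1.48) and the methyl-CpG reader gene Zbtb38 (1.43) rose, and the reader gene Zbtb4 fell (−0.90). The readers Mbd1, Mbd3 and Mbd4 and the maintenance gene Dnmt1 did not pass, although Mbd1 was called lower when its probe sets were averaged (log2 −0.46, adjusted p = 0.022). In total 4 of 18 were higher and 2 lower, 1 without knockout leukaemia 1 or any 1 of the thymocyte arrays (33.3%, near the background). Of 23 NuRD, PRC2 and H3K27 demethylase genes, 5 were higher (3 without knockout thymocyte 2) and 3 lower. The NuRD subunit gene Mta3 gave 3121, 1952 and 1623 against 248, 254 and 385 (log2 2.82, adjusted p = 0.000301), the PRC2 accessory gene Mtf2 rose from 1564 ± 54.4 to 4981 ± 810.0 (log2 1.65), and Phf1, of the same accessory family, fell (log2 −1.50).

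Most other lists lay near or below the background of 29.4%, but 39.1% of the Wnt inhibitors were called. Of 27 Wnt receptors and transducers 3 were higher and 3 lower, led by the receptor gene Ryk, from 23.9 ± 0.404 to 442 ± 152 (log2 3.46), and the Wnt carrier gene Wls (log2 −2.42). Of 23 Wnt inhibitors 4 were higher, among them Tle4 (log2 1.32) and the feedback gene Axin2 (0.92), and 5 lower, among them Kremen1 (−1.96) and Dact1 (−1.67). Imprinted genes had 1 higher (0 without knockout leukaemia 1 or 2 or knockout thymocyte 1 or 3) and 1 lower of 23. Of 21 germline genes that DNA methylation silences, 9 were bright enough to be tested and 0 were higher (0 at an unadjusted p under 0.05), with Brdt (log2 −1.69) and Tex15 (−0.70) lower. Of 14 cathepsin genes, Ctsl was lower and Ctse (log2 2.49), Ctsc (1.60) and Ctsw (1.87) higher. In 9 of 20 alternative settings 2 cathepsin genes were lower. These settings include 75th-percentile centring, quantile normalization and leaving out knockout thymocyte 3.

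**Figure D3:**
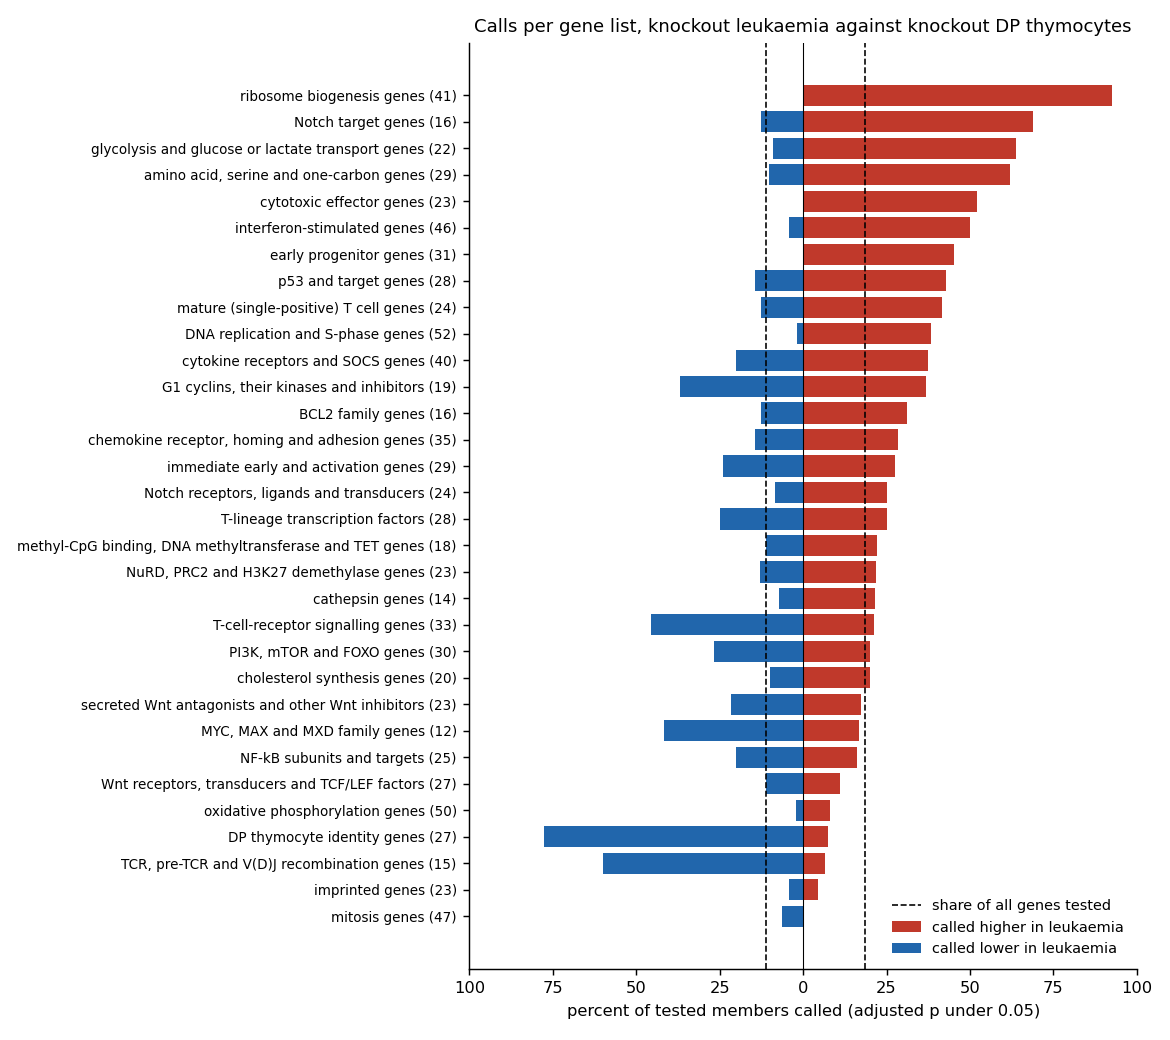
Share of tested members called in each gene list with at least 12 tested members (number in brackets), red to the right for higher and blue to the left for lower in knockout leukaemia, with dashed lines at the shares of all genes tested (18.5% and 11.0%). Ribosome biogenesis and Notch target genes reach farthest to the right, DP identity genes farthest to the left, and oxidative phosphorylation, imprinted and mitosis genes stay short.

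The same contrast in wild-type cells, on 6 other arrays, asks which of these differences depend on genotype. In the wild-type pair 3031 genes were higher and 2197 lower. Of the genes higher in the knockout pair 1660 were also called higher in the wild-type pair, 58.3% of the knockout calls and 54.8% of the wild-type calls. For lower genes the number was 1179, 69.6% and 53.7%. Opposite calls were made for 153 genes higher and 56 genes lower in the knockout pair. The difference between the pairs was tested directly over all 12 arrays, and passed for 1943 genes (12.6%), 1212 (7.86%) in which the knockout pair was higher and 731 (4.74%) in which it was lower. Of the 2845 genes higher in the knockout pair 802 (28.2%) had a difference that passed upward, and of the 1694 lower genes 271 (16%) one that passed downward.

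The wild-type pair differs in more than genotype. Wild-type leukaemias had Xist at a mean of 4193 and wild-type thymocytes at 35.4, so sex-linked expression differs within that pair, and Xist differed between the pairs by −6.45 (adjusted p = 4.35e-09). Sex and genotype cannot be told apart in the leukaemias. Poly-A control signal was present on 4 of the 6 wild-type arrays and 1 of the 6 knockout arrays. With that set as a block the difference passed for 1361 and 1064 genes.

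The losses of Rag1, Rag2, Bcl6, Ets2, Themis and Bcl2l1 did not differ between the pairs beyond the threshold. For Rag1 the wild-type difference was −7.64 and the difference of differences −0.71 (SE 0.27, adjusted p = 0.124). Its means were 18.5 in knockout and 39.4 in wild-type leukaemias, at or near background. A difference between the 2 losses of Rag1 could therefore hardly show. The co-receptor and related losses did differ. Cd8b1 was at log2 −1.41 in the wild-type pair and −6.74 here, a difference of −5.34 (SE 0.50, adjusted p = 2.76e-05), and Cd4 (−1.27), Cd8a (−3.80), Ccr9 (−4.0) and Ly6d (−2.92) were likewise lower than in the wild-type pair. Ptcra changed direction: it was higher in wild-type leukaemias than in wild-type thymocytes (log2 2.01) and lower here (log2 −3.34), a difference of −5.35 (adjusted p = 2.98e-08). Cttn, an actin regulator gene, and Fabp5, a fatty acid carrier gene, also passed in opposite directions, Cttn at log2 2.50 and −3.58 (difference −6.08) and Fabp5 at 2.65 and −1.50 (difference −4.14, the knockout call lost in 2 settings). The receptor gene Nrp1 (0.66 and −3.95, difference −4.60) and H2-Q2 (1.04 and −4.97, difference −6.01) were lower here, while their wild-type differences did not pass (adjusted p = 0.0588 and 0.113).

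On the side of gains, Dtx1 (0.78, adjusted p = 0.129), Hes1 (1.51, 0.0915), Heyl (1.07, 0.133) and Myc (0.11, 0.953) did not differ between the pairs beyond the threshold, whereas Notch1 (1.96, 0.00026), Hey1 (3.51, 8.76e-05) and Nrarp (1.35, 0.0211, call lost in 4 of 24 settings) did. Mycn rose more in the wild-type pair (6.81) than here (5.85), a difference of −0.96 (SE 0.23, adjusted p = 0.0177), which was lost when probe sets were averaged (adjusted p = 0.951). Of 41 ribosome biogenesis genes 6 had a lower difference here and 0 a higher one (median difference −0.54, against −0.05 over all genes tested). For S-phase genes the numbers were 11 and 0 of 52, for oxidative phosphorylation 10 and 0 of 50, and for cholesterol synthesis 6 and 0 of 20. Over all genes tested the shares were 4.74% lower and 7.86% higher. Interferon-stimulated genes went the other way, with 24 of 46 higher here than in the wild-type pair and 1 lower (median difference 1.14).

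The largest upward differences from the wild-type pair were genes bright in the knockout leukaemias and dim in the other 3 groups. Cpa3 had a mean of 7622 there and of 20.7, 23.2 and 21.8 in wild-type leukaemias, knockout thymocytes and wild-type thymocytes (difference 7.65, SE 0.16, adjusted p = 2.66e-10). Cd93 (difference 7.00), Tgfb2 (6.19), Pdgfrb (6.10), Hhex (6.08) and Gzmb (5.97) had the same shape, with means of at most 39.1 in the other groups. Trgv4 differed by 6.45, with a mean of 69.9 in wild-type thymocytes. Angpt1 combined both directions, falling from 112 in wild-type thymocytes to 9.67 in wild-type leukaemias and rising here from 73.8 to 1178 (difference 6.05). Of the 31 progenitor genes 11 were higher here than in the wild-type pair and 1, Mycn, was lower. For cytotoxic genes it was 10 and 0 of 23, against 7.86% higher and 4.74% lower of all genes tested.

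**Figure D4:**
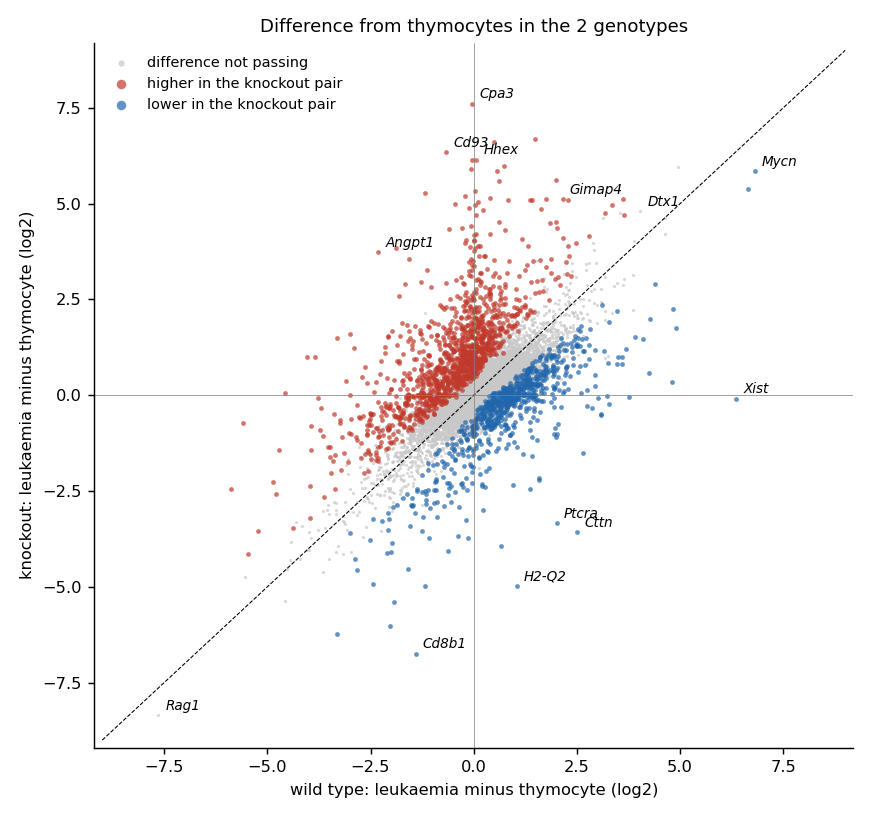
Difference between leukaemia and DP thymocytes on the log2 scale for each of the 15420 genes tested, wild-type pair on the horizontal axis and knockout pair on the vertical axis, the dashed line marking equal differences. Genes whose difference between the pairs passed are red where the knockout pair is higher (1212) and blue where it is lower (731), with Rag1 and Dtx1 near the line and Cpa3, Cd93 and Xist far from it.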

How the data were processed

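RNA of sorted cells was hybridised, 1 sample per array, to Affymetrix 3' expression arrays from 7 µg of total RNA, per the labels' protocols. The deposited values are intensities on a linear scale, 1 per probe set and array, whose summarisation and normalization by the authors were not given in the sources used here. The medians of log2(intensity + 16) were alike on all 12 arrays. Of 45101 probe sets, 34945 have 1 gene in the platform annotation, 932 have several, 9160 have none and 64 are controls. 34741 of the single-gene probe sets matched RefSeq by gene identifier.

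Each gene was represented by its brightest probe set over all 12 arrays, and 15420 of 18193 genes above the 25th percentile on at least 3 arrays were tested with limma 3.58.1 (lmFit and eBayes, R 4.3.3) on log2(intensity + 16). The 6 knockout arrays entered the main fit, and all 12 the difference from the wild-type pair. On simulated data that fit recovered 69% of log2 changes of 1 and 95% of changes of 2 in the knockout pair, with 8 false calls. For the difference between the pairs it recovered 53% and 87%, with 6. The simulation changed 100 genes of each size among 15420. In the real knockout pair 29.4% of genes passed, so the simulated rates need not carry over. With 3 arrays against 3, an exact two-sided test of a single gene could not go below p = 0.1.

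Members and gene lists were chosen with earlier results of these data known. Named genes are Mbd2 and sex-linked genes, the 12 largest differences each way among called genes with groups apart, up to 5 called members per list and direction by p, any member of the identity, receptor, Notch, MYC, G1, BCL2, methylation, progenitor and marker lists, and the 8 largest differences between the pairs each way. Ldha, Asns, Phgdh, Mcm5, Mcm6, H2-D1, Mki67, Top2a, Slc2a1, Cxcr4, Mdm2, Prf1, Mx1, Rsad2 and Egr2 fall outside that rule and were chosen after their values were seen.
Alternatives were centring, quantile normalization, added constants, filters, probe set choice, array weights, a trended robust prior, a Gapdh ratio covariate, poly-A and replicate blocks, all 12 arrays in 1 fit, and leaving out each array.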

Additional observations from a re-analysis of the deposited data

Results flagged for a closer look

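Of the 254 genes named with a difference, 117 had a leukaemia-minus-thymocyte difference in the knockout pair that differed from the one in the wild-type pair, by limma's interaction term over all 12 arrays, 82 upward and 35 downward, with adjusted p from 1.02e-10 to 0.0493. Over all genes tested it passed for 12.6%. Some genes were named for the size of this very difference and others for large knockout differences, so the 2 shares cannot be compared. Each value below is the knockout difference minus the wild-type difference on the log2(intensity + 16) scale. Sex-linked expression differs within the wild-type pair, and its part was not tested. Poly-A control signal was balanced within that pair, on 2 of 3 arrays of each group, but differed between the pairs, and the counts with it as a block are given above.

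In some of the 24 alternative settings 17 of these differences did not pass: Cdkn2a in 15, Mcpt8 in 13, Mcm5 in 12, Mxd4 in 12, Cblb in 10, Cd22 in 9, Ctse in 9, Epor in 9, Mbd1 in 9, Cd79b in 8, Col1a1 in 8, Srgn in 8, Pole2 in 6, Nrarp in 4, Pole in 3, Mycn in 1 and Nfatc2 in 1. Among these the adjusted p reached 0.951 for Mycn, 0.894 for Ctse, 0.674 for Mbd1 and 0.163 for Cdkn2a.

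The sex-linked genes were Xist (−6.45) and Eif2s3y (5.05). Among genes of DP identity, the receptor and its signalling the downward ones were Ptcra (−5.35), Cd8b1 (−5.34), Ccr9 (−4.0), Cd2 (−3.80), Cd8a (−3.80), Ly6d (−2.92), Xrcc6 (−1.79), Satb1 (−1.32), Cd4 (−1.27) and Slamf1 (−0.79), and the upward ones Cblb (1.75), Plxnd1 (1.70), Dntt (1.63) and Nfatc2 (1.54). Lineage factors that differed upward were Sox13 (3.35), Gata3 (1.01) and Ikzf2 (1.01). In the MYC, growth and metabolism lists the upward ones were Slc2a3 (2.04) and Mxd4 (1.66) and the downward ones Insig1 (−2.15), Glul (−1.95), Mxd3 (−1.07) and Mycn (−0.96). In the cell cycle, survival and p53 lists they were Ccnd2 (4.63), Bcl2 (2.62), Pmaip1 (2.27), Cdk6 (1.43) and Cdkn2a (0.71) upward and E2f2 (−1.91), Cdca3 (−1.29), Birc5 (−1.24), Pole2 (−0.76), Pole (−0.61) and Mcm5 (−0.54) downward. In the Notch lists the upward differences were Hey1 (3.51), Il7r (2.69), Notch1 (1.96) and Nrarp (1.35).

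Progenitor, mast, megakaryocyte and erythroid genes differed upward for Cpa3 (7.65), Cd93 (7.00), Hhex (6.08), Angpt1 (6.05), F2r (5.73), Lyl1 (5.26), Nfe2 (4.97), Erg (4.19), Kit (4.02), Lmo2 (3.90), Hdc (2.49), Hemgn (2.37), Etv6 (2.24), Itgb3 (2.10), Gata1 (1.32), Mcpt8 (1.31), Itga2b (1.30), Gata2 (1.24) and Srgn (0.65). The double-negative thymocyte marker Cd44 (−2.69) differed downward. Cytotoxic and natural killer genes differed upward for Gzmb (5.97), Nkg7 (5.44), Serpinb6b (5.14), Il18r1 (4.95), Klrd1 (3.44), Cst7 (3.24), Rora (2.93), Ctsw (2.74), Zbtb16 (2.70) and Il2rb (1.09). Interferon-stimulated and class I genes did so for H2-K1 (2.13), Ifitm2 (5.41), Usp18 (3.41), Oasl2 (2.46) and Oas3 (1.41), and mature T cell and GIMAP genes for Gimap4 (2.96), Igfbp4 (2.65), Gimap3 (2.19), Gimap5 (1.79) and Ccr7 (1.28). Other upward differences among cytokine, homing, chromatin, signalling and remaining genes were Trgv4 (6.45), Tgfb2 (6.19), Pdgfrb (6.10), Lmcd1 (5.30), Trgv1 (5.21), Scel (3.61), Il10ra (2.83), Mta3 (2.56), Dusp2 (2.33), Epcam (2.22), Phlpp1 (2.00), Stat5a (1.91), Itga4 (1.84), Ltb (1.69), Dnmt3b (1.63), Tle4 (1.61), Ctse (1.39), Itgb7 (1.18), Mtf2 (1.15), Axin2 (1.09), Mbd1 (0.92), Cd22 (0.90), Col1a1 (0.81) and Cd79b (0.72), and the remaining downward ones Cttn (−6.08), H2-Q2 (−6.01), Nrp1 (−4.60), Fabp5 (−4.14), Ctsl (−3.47), Dgkeos (−2.47), Ms4a6b (−2.21), Tex15 (−2.07), Id3 (−2.02), Tiparp (−1.74), Car2 (−1.33), Dact1 (−1.22) and Epor (−0.62).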

How the results depend on the processing

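The knockout pair gave 2845 higher and 1694 lower genes, and leaving out 1 array gave 2038 to 2861 and 1252 to 1622. With all single-gene probe sets tested the counts were 4429 and 3304 probe sets, and at an adjusted p under 0.01 they were 1834 and 1065 genes. The difference from the wild-type pair gave 1212 and 731, 953 to 1294 and 562 to 809 with 1 array left out, 771 and 368 at an adjusted p under 0.01, and 1129 lower genes with array weights. The counts under all other settings were within 1.5 times. Between same-numbered arrays the correlations of deviations from the group means were −0.39, 0.09 and −0.43, which show no pairing by number. They rest on 3 arrays per group and cannot tell whether samples shared an animal or a batch. The highest values joined leukaemia 3 with thymocyte 1 (0.49) and leukaemia 1 with thymocyte 3 (0.38), whose Gapdh 3' to 5' ratios were 2.98 and 3.33, and 0.964 and 1.12. With that ratio as a covariate the knockout pair gave 3206 and 1947 genes. A replicate block gave 2238 and 1275 genes in the knockout pair and 1249 and 770 for the difference between pairs. Centring on the 75th percentile also raised some counts of lower list members. It gave 6 lower mitosis genes and 5 lower NuRD, PRC2 and H3K27 demethylase genes, against 3 and 3 in the main fit.

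Of 225 named genes called in the knockout pair, 198 were called in every alternative of 20 that tested them. Of 117 called for the difference between the pairs, 100 were called in every alternative of 24. Many of these genes were named for a large difference or small p in the main fits. Their numbers therefore do not show how stable the calls over all genes are. In the knockout pair the poly-A block equals leaving out knockout leukaemia 1, and both gave 2392 and 1442 genes. That fit therefore counts more than once among the 20 settings and in the numbers of settings with a lost call. Signs reversed for 2 genes that did not pass: Mbd1 gave −0.46 with probe sets averaged, and Mbd3 gave −0.031 with the poly-A block and −0.031 to 0.41 with 1 array left out. The cause was not tested.

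Signals at or below 35.3 cannot be told from background, 3 arrays per group limit the precision, and the authors' normalization is unknown.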
